A study of Mus musculus with 45 samples.

Results

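The 38 genes described here build and maintain a simple epithelium. They comprise 4 keratins, 2 surface adhesion molecules, 8 claudins, 8 other tight junction genes, 3 apical polarity genes, 8 desmosomal genes, 4 regulators of the epithelial state and the channel-like gene Tmc4. They were chosen by symbol, and all 38 had counts among the 24422 gene rows of the table, Pals1 under its older symbol Mpp5. The samples came from the uterus of sexually mature CD-1 females, 1 to 3 months old by the study's methods, of 2 genotypes, wild type (WT) and Plag1 knockout (Plag1KO, written KO here), Plag1 being a zinc finger transcription factor. Every mouse of both genotypes had been superovulated with pregnant mare serum and then human chorionic gonadotropin (hCG) and was killed the day after the hCG, so no group was free of hormone treatment. By the study's methods, superovulated females were also put to WT males, except those that gave unfertilised oocytes. Which of the mice used here had been mated is not stated. Each mouse gave 3 tissues, namely a piece of intact uterine horn (uterus), the cells scraped off the exposed mucosa (endometrium) and the wall that remained (myometrium). With 7 WT and 7 KO mice this made 6 groups of 7, or 42 samples, from 45 libraries; 3 repeat libraries of samples already present were added to them.

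In the uterus, a single layer of luminal cells and the glands that open into it are epithelium, while the stroma beneath them and the muscle outside are not. Keratin filaments brace such cells from within and end at desmosomes, which rivet neighbours together. Near the apical surface, tight junctions made of claudins, occludin and their scaffolds seal the space between cells, and polarity complexes keep the apical membrane apart from the rest. E-cadherin holds the cells to each other, and factors of the grainyhead, ETS and ESRP families keep junction genes transcribed and spliced in their epithelial forms. These genes are in common use as markers of epithelium against stroma and muscle.

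The libraries were made with STRT, a method that reads a tag at the 5′ end of each RNA, so a count is not scaled for transcript length and values of different genes can be set side by side. Table totals ran from 264095 to 1232992 counts per library. Values are CPM, counts scaled to a total of 1000000 gene counts per sample, spike-ins excluded. At these depths 3 counts in a library stood for 2.45 to 11.7 CPM, below which a single value says little. Plag1 itself had 0 to 2 counts per group, too few to check the genotype labels. The summed level of 8 smooth muscle markers lay between 16974 and 41431 CPM in the myometrium and between 219.6 and 4776 CPM in 12 of the 14 endometrium samples, but reached 14197 CPM in WT mouse 3 and 13732 CPM in KO mouse 13. The endometrium of WT mouse 8 held 6120.0 CPM of Ovgp1, an oviduct secretory gene, and the myometrium of WT mouse 5 held more of the 38 genes than any other myometrium sample. All samples are bulk tissue, in which fewer epithelial cells and less RNA per epithelial cell cannot be told apart.

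The scraped endometrium carried far more RNA of these genes than the wall left behind. Their summed level was 4469 ± 1752 CPM (SD, n = 7) in WT and 5038 ± 1213 CPM in KO endometrium, against 705 ± 565 and 723 ± 309.9 CPM in myometrium, with the intact uterus between them at 2639 ± 740.3 and 3347 ± 719.9 CPM. Genes were tested with edgeR where they reached 1 CPM in at least 5 samples of the comparison, and a gene was called at a Benjamini-Hochberg adjusted p under 0.05. In WT, 37 of the 38 passed that filter and 30 were higher in the endometrium, 0 were lower and 7 were not called, whereas 6.81% of all genes tested were called higher and 6.39% lower. In KO, 36 passed and 27 were higher, 0 were lower and 9 were not called, against 10.6% of all genes higher and 8.71% lower. The median difference over the tested members was 2.44 on the log2 scale in WT and 2.65 in KO, and over all genes 0.01 and 0.08. A gene that is nearly absent from the myometrium passes the filter through the endometrium alone, so the shares above describe the genes and are not a test of the list. In 11 genes in WT and 18 in KO, every endometrium sample lay above every myometrium sample, which held for 1.73% and 3.22% of all genes.

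**Figure D1:**
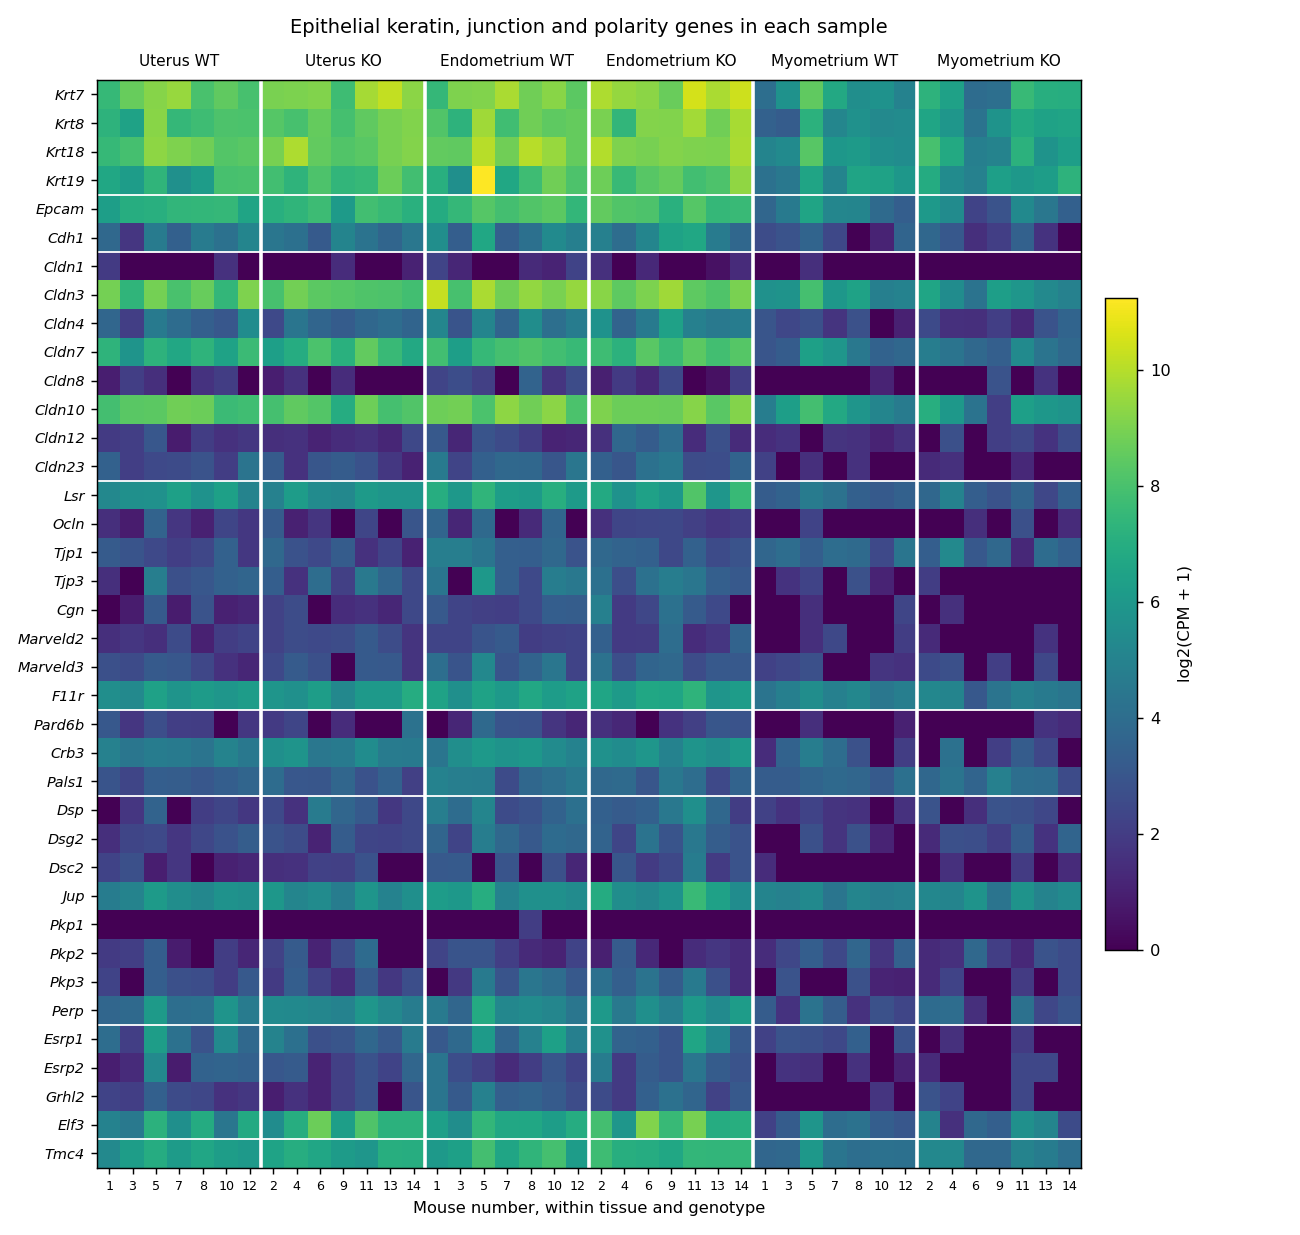
Each row is 1 gene, ordered by role, and each column 1 of the 42 samples, grouped by tissue and genotype, with colour giving log2(CPM + 1). Keratins, claudins 3, 7 and 10, Epcam, Tmc4 and Elf3 are brightest, the myometrium columns are dark for most rows, and WT mouse 5 is the brightest of the 7 WT myometrium columns.

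The 38 genes lie on 16 chromosomes, and a promoter window of 250 bases before to 50 bases after the start site was available from RefSeq (GRCm38.p6) for 23 of them. The E-box letters CACCTG, or CAGGTG on the other strand, were in a window of 17 of the 23 (73.9%), against 22.6% of all 27025 genes with a window, 21.3% of those tested in WT and 33.7% of the 643 other genes higher in WT endometrium. CACCTG is the core of the sites that SNAI and ZEB family repressors are known to bind. The 6 without it were Cldn1, Cldn10, Cldn12, Tjp1, Cgn and Jup. Of these, Cldn10, Cgn and Jup were called between endometrium and myometrium in both genotypes. Cldn12 and Tjp1 were called in neither, nor was Cldn1, a rare gene tested in WT alone. Ocln, which has the letters, was also called in neither. Whether the letters bear on the calls was not tested. In 14 of the 17 genes a match lay wholly upstream of the start site. The related letters CAGCTG, added for contrast, were in 3 of 23 (13.0%, against 18.3% of all genes and 18.0% of those tested in WT). TATAAA was in 3 (13.0%, against 15.7% and 8.82%) and GGGCGG in 19 (82.6%, against 38.2% and 68.4%). The grainyhead-type letters AACCGGTT were in 0 of 23, in 0.174% of all genes and in 0.308% of those tested. Each motif was searched on both strands, matches of different motifs may share bases, and a match describes the letters only.

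The bases just upstream of the start site are shown for the keratins at the head of the list, for the surface marker Epcam, for the factor Elf3, which had the lowest p between genotypes, and for Tjp1, which was not called between the layers. They are 5′ to 3′ on the gene's strand in GRCm38.p6, with CACCTG or CAGGTG in capitals. The windows are chr15:101412153-101412402 (plus strand) for Krt7, chr15:102004343-102004592 (minus strand) for Krt8, chr15:102027966-102028215 (plus strand) for Krt18, chr17:87635729-87635978 (plus strand) for Epcam, chr1:135258473-135258722 (minus strand) for Elf3 and chr7:65371245-65371494 (minus strand) for Tjp1.
Krt7: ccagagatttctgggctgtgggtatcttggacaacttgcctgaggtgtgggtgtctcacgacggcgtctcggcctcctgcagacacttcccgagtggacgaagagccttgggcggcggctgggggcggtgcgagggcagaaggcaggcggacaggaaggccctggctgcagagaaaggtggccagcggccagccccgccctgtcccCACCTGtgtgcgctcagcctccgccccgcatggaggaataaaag
Krt8: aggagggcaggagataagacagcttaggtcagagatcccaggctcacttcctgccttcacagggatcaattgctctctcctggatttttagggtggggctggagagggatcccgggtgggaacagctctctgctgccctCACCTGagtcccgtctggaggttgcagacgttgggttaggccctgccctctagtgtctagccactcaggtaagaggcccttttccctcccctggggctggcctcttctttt
Krt18: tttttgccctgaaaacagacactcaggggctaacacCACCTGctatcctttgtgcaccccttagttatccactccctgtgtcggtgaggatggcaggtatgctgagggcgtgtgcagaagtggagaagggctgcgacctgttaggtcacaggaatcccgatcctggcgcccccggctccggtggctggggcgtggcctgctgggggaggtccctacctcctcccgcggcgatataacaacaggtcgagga
Epcam: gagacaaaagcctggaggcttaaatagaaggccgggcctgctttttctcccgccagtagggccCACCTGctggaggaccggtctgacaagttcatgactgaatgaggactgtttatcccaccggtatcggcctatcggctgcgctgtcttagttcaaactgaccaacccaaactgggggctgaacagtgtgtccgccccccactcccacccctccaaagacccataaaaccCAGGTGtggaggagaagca
Elf3: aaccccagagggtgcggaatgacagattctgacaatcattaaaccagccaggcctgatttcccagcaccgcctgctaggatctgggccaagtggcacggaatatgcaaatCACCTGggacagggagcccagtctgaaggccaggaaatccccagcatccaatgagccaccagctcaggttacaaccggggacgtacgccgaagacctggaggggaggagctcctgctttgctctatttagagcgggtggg
Tjp1: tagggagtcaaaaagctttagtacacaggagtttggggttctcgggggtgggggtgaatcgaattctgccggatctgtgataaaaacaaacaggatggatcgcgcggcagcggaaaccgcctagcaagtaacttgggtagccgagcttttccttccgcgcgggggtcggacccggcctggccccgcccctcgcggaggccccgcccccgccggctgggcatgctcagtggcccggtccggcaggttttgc
Krt7, Krt8, Krt18 and Elf3 had 1 match each in these bases, Epcam had 2 and Tjp1 had 0.

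Keratins were as a group the most abundant of the 38 genes in the endometrium, 43.4% ± 10.2 (SD, n = 7) of their summed level in WT endometrium and 49.1% ± 6.45 in KO. Krt8 is the type II keratin that pairs with Krt18 in simple epithelia. In WT, Krt8 lay at 154 to 810.1 CPM (median 352) in the endometrium, 8.62 to 150.2 CPM (median 38.4) in the myometrium and 89.9 to 619 CPM (median 216) in the intact uterus. In KO, Krt8 lay at 172 to 872 CPM (median 559) in the endometrium, 18.7 to 113 CPM (median 87.6) in the myometrium and 245 to 555 CPM (median 360.2) in the intact uterus. The lowest WT endometrium sample stood just above the highest WT myometrium sample, which was mouse 5, and the layers did not overlap in KO either. For Krt8 the endometrium minus myometrium difference (log2 ± SE) was 2.78 ± 0.43 (adjusted p = 7.64e-05) in WT and 2.89 ± 0.34 (adjusted p = 3.83e-06) in KO. Krt18, the type I partner, lay at 365 to 1057 CPM (median 448) in the endometrium, 32.8 to 321 CPM (median 47.7) in the myometrium and 188 to 653 CPM (median 332) in the intact uterus in WT. In KO, Krt18 lay at 498 to 1006 CPM (median 543) in the endometrium, 28.0 to 255 CPM (median 78.9) in the myometrium and 293 to 939.6 CPM (median 492) in the intact uterus. Again the layers did not overlap, although WT mouse 5 held far more Krt18 in its myometrium than the other 6 WT mice. For Krt18 the difference was 2.65 ± 0.43 (adjusted p = 0.000124) in WT and 2.68 ± 0.37 (adjusted p = 1.71e-05) in KO. Krt7, a type II keratin of ductal and glandular epithelium, lay in WT at 179 to 909.6 CPM (median 535) in the endometrium, 15.5 to 360.4 CPM (median 51.7) in the myometrium and 185 to 744 CPM (median 361) in the intact uterus. In KO, Krt7 lay at 409 to 1461 CPM (median 916) in the endometrium, 14.9 to 191 CPM (median 129.9) in the myometrium and 213 to 1212 CPM (median 552) in the intact uterus. The layers overlapped in WT because mouse 5 myometrium lay above the endometrium of mice 1 and 12, and did not overlap in KO. For Krt7 the difference was 2.32 ± 0.49 (adjusted p = 0.00178) in WT and 3.13 ± 0.42 (adjusted p = 1.16e-05) in KO. Krt19, a small type I keratin with almost no tail, lay in WT at 48.3 to 2447 CPM (median 213) in the endometrium, 17.3 to 94.1 CPM (median 60.4) in the myometrium and 49.1 to 261 CPM (median 104) in the intact uterus. In KO, Krt19 lay at 188 to 671 CPM (median 324) in the endometrium, 29.9 to 153 CPM (median 76.9) in the myometrium and 158 to 428 CPM (median 228) in the intact uterus. The highest WT value was mouse 5 endometrium, the lowest WT endometrium sample (mouse 3) lay below 4 of the WT myometrium samples, and the KO layers did not overlap. The difference in Krt19 was 2.87 ± 0.59 (adjusted p = 0.00134) in WT and 2.15 ± 0.35 (adjusted p = 9.28e-05) in KO. Without WT mouse 5 the WT difference in Krt19 was 1.90 (adjusted p = 0.00431).

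Epcam, a surface adhesion molecule of most simple epithelia, lay in WT at 121 to 338 CPM (median 239) in the endometrium, 9.37 to 93.8 CPM (median 23.7) in the myometrium and 79.0 to 178 CPM (median 136) in the intact uterus. In KO, Epcam lay at 141 to 377 CPM (median 278) in the endometrium, 3.73 to 65.8 CPM (median 21.4) in the myometrium and 68.6 to 226 CPM (median 166) in the intact uterus. No myometrium sample reached the lowest endometrium sample of its genotype. For Epcam the difference was 2.79 ± 0.40 (adjusted p = 3.65e-05) in WT and 3.18 ± 0.39 (adjusted p = 5.10e-06) in KO. Cdh1, which encodes E-cadherin of the adherens junction, lay in WT at 9.39 to 103 CPM (median 28.3) in the endometrium, 0 to 11.5 CPM (median 5.18) in the myometrium and 2.47 to 33.5 CPM (median 17.5) in the intact uterus. In KO, Cdh1 lay at 12.7 to 105 CPM (median 28.6) in the endometrium, 0 to 12.5 CPM (median 3.23) in the myometrium and 8.12 to 32.6 CPM (median 18.5) in the intact uterus. Cdh1 was thus measured at a much lower level than Epcam, its WT layers overlapped and its KO layers just did not. For Cdh1 the difference was 2.36 ± 0.53 (adjusted p = 0.00313) in WT and 2.78 ± 0.51 (adjusted p = 0.000382) in KO.

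Of the 8 claudins, the membrane proteins that set what a tight junction lets pass, 6 were higher in WT endometrium and 5 in KO. Cldn3, a sealing claudin, was the most abundant of them in the endometrium. It lay at 248 to 1241 CPM (median 681) in the endometrium, 27.9 to 246 CPM (median 53.9) in the myometrium and 166 to 534 CPM (median 395) in the intact uterus in WT. In KO, Cldn3 lay at 287 to 801 CPM (median 510.1) in the endometrium, 18.7 to 97.2 CPM (median 43.9) in the myometrium and 231 to 467 CPM (median 284) in the intact uterus. WT mouse 5 gave the highest myometrium value and WT mouse 3 the lowest endometrium value, 248 CPM, and still the layers did not overlap. For Cldn3 the difference was 2.88 ± 0.41 (adjusted p = 2.76e-05) in WT and 3.22 ± 0.31 (adjusted p = 5.36e-07) in KO. Cldn10, which can form ion-selective pores, lay in WT at 265 to 646 CPM (median 452) in the endometrium, 25.0 to 236 CPM (median 58.0) in the myometrium and 204 to 454 CPM (median 329) in the intact uterus. In KO, Cldn10 lay at 336 to 594 CPM (median 422) in the endometrium, 3.23 to 132 CPM (median 61.9) in the myometrium and 125 to 442 CPM (median 292) in the intact uterus. Its layers did not overlap in either genotype. For Cldn10 the difference was 2.38 ± 0.41 (adjusted p = 0.000239) in WT and 2.96 ± 0.36 (adjusted p = 5.14e-06) in KO. Cldn7, found along the lateral membrane of many epithelia, lay in WT at 79.1 to 288 CPM (median 229) in the endometrium, 6.91 to 84.5 CPM (median 12.5) in the myometrium and 56.1 to 205 CPM (median 156) in the intact uterus. In KO, Cldn7 lay at 151 to 343 CPM (median 227) in the endometrium, 9.68 to 40.5 CPM (median 19.1) in the myometrium and 80.8 to 377 CPM (median 139) in the intact uterus. Only WT mouse 3 endometrium fell among the WT myometrium values, below mouse 5. For Cldn7 the difference was 2.72 ± 0.44 (adjusted p = 0.000103) in WT and 3.60 ± 0.30 (adjusted p = 5.47e-08) in KO, in KO with the lowest adjusted p of any of the 38 genes. Cldn4, whose gene lies 39280 bases from Cldn3, lay in WT at 6.70 to 44.9 CPM (median 25.7) in the endometrium, 0 to 6.91 CPM (median 4.31) in the myometrium and 3.30 to 43.8 CPM (median 12.2) in the intact uterus. In KO, Cldn4 lay at 11.2 to 84.9 CPM (median 25.4) in the endometrium, 1.45 to 11.5 CPM (median 3.23) in the myometrium and 4.59 to 19.7 CPM (median 11.6) in the intact uterus. The layers touched in both genotypes because 1 endometrium sample of each lay just below the highest myometrium sample. For Cldn4 the difference was 2.59 ± 0.52 (adjusted p = 0.00108) in WT and 2.84 ± 0.47 (adjusted p = 0.000124) in KO.

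The other 4 claudins were rare. Cldn23 averaged 12.9 ± 6.96 CPM in WT and 11.0 ± 6.30 CPM in KO endometrium. Its means were 1.05 ± 1.40 and 0.703 ± 0.888 CPM in myometrium and 7.41 ± 5.79 and 5.11 ± 3.11 CPM in uterus (mean ± SD, n = 7 in each group). Its difference was 3.34 ± 0.67 (adjusted p = 0.00101) in WT and 3.48 ± 0.66 (adjusted p = 0.000489) in KO, and in KO, where the myometrium held 3 counts, the ratio of pooled counts was 11.5 (95% counting interval 3.76 to 57.5). Every endometrium sample lay above every myometrium sample in both genotypes. Cldn8, a barrier claudin, averaged 4.42 ± 3.36 CPM in WT and 1.88 ± 1.60 CPM in KO endometrium. Its means were 0.166 ± 0.440 and 1.23 ± 2.44 CPM in myometrium and 1.61 ± 1.35 and 0.673 ± 0.906 CPM in uterus. It was called in WT, at 3.35 ± 0.88 (adjusted p = 0.0101), where the myometrium held 1 count and the ratio was 19.7 (95% counting interval 3.13 to 819), and was not called in KO, at 0.79 ± 0.96 (adjusted p = 0.628) and a ratio of 1.73 (95% counting interval 0.432 to 9.94). Cldn12 averaged 3.75 ± 2.74 CPM in WT and 6.76 ± 5.55 CPM in KO endometrium. Its means were 1.62 ± 0.800 and 2.91 ± 2.30 CPM in myometrium and 3.15 ± 2.02 and 2.09 ± 1.11 CPM in uterus. Its difference of 0.80 ± 0.68 (adjusted p = 0.534) in WT and 1.09 ± 0.65 (adjusted p = 0.266) in KO did not pass the test. Cldn1, a claudin best known from skin, averaged 1.69 ± 1.62 CPM in WT and 0.771 ± 0.861 CPM in KO endometrium. Its means were 0.268 ± 0.709 and 0 ± 0 CPM in myometrium and 0.697 ± 1.21 and 0.405 ± 0.713 CPM in uterus. With 7 counts in WT endometrium and 1 in WT myometrium, Cldn1 gave 2.01 ± 0.95 (adjusted p = 0.187) and a ratio of 7.27 (95% counting interval 0.933 to 327). In KO it had 5 counts in the endometrium and 0 in the myometrium and did not pass the filter.

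Among the other tight junction genes, Lsr, which marks the corners where 3 cells meet, had the lowest adjusted p in WT. Lsr averaged 100.4 ± 40.1 CPM in WT and 123 ± 90.9 CPM in KO endometrium. Its means were 12.9 ± 5.99 and 12.1 ± 8.62 CPM in myometrium and 55.5 ± 20.2 and 53.0 ± 16.8 CPM in uterus. Its difference was 2.82 ± 0.32 (adjusted p = 2.00e-06) in WT and 3.27 ± 0.42 (adjusted p = 7.23e-06) in KO, and the layers did not overlap in either genotype. F11r, the junctional adhesion molecule JAM-A, which blood vessel and blood cells also make, averaged 80.0 ± 18.9 CPM in WT and 93.7 ± 33.1 CPM in KO endometrium. Its means were 29.3 ± 8.91 and 23.9 ± 9.61 CPM in myometrium and 61.2 ± 16.4 and 68.3 ± 28.2 CPM in uterus. Its difference was smaller, 1.31 ± 0.26 (adjusted p = 0.000983) in WT and 1.91 ± 0.27 (adjusted p = 2.54e-05) in KO, yet the layers did not overlap. Tjp3, the scaffold ZO-3, averaged 20.7 ± 21.0 CPM in WT and 14.7 ± 7.39 CPM in KO endometrium. Its means were 1.87 ± 2.30 and 0.448 ± 1.18 CPM in myometrium and 9.19 ± 9.06 and 9.78 ± 7.36 CPM in uterus. Its difference was 3.23 ± 0.76 (adjusted p = 0.00455) in WT and 4.34 ± 0.68 (adjusted p = 6.76e-05) in KO, and in KO only 2 counts were seen in the myometrium, for a ratio of 24.5 (95% counting interval 6.58 to 206). Cgn, the scaffold cingulin, averaged 5.93 ± 2.73 CPM in WT and 9.43 ± 10.1 CPM in KO endometrium. Its means were 0.863 ± 1.62 and 0.273 ± 0.721 CPM in myometrium and 2.65 ± 3.24 and 2.63 ± 1.87 CPM in uterus. It differed by 2.23 ± 0.72 (adjusted p = 0.0394) in WT and 4.40 ± 0.96 (adjusted p = 0.00191) in KO, the KO myometrium holding 1 count and the ratio being 33.5 (95% counting interval 5.77 to 1344). Marveld3, an occludin relative, averaged 14.3 ± 11.4 CPM in WT and 9.80 ± 4.54 CPM in KO endometrium. Its means were 2.54 ± 2.11 and 2.56 ± 2.50 CPM in myometrium and 4.82 ± 2.56 and 5.27 ± 3.21 CPM in uterus. It differed by 2.16 ± 0.59 (adjusted p = 0.0133) in WT and 1.95 ± 0.59 (adjusted p = 0.0211) in KO.

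Marveld2, or tricellulin, averaged 4.74 ± 1.88 CPM in WT and 6.57 ± 5.41 CPM in KO endometrium. Its means were 1.35 ± 1.83 and 0.529 ± 0.918 CPM in myometrium and 2.73 ± 1.33 and 4.90 ± 1.82 CPM in uterus. It was not called in WT, at 1.57 ± 0.71 (adjusted p = 0.164), and was called in KO, at 3.17 ± 0.83 (adjusted p = 0.00842), with 2 counts in KO myometrium and a ratio of 10.1 (95% counting interval 2.59 to 86.6). Ocln, or occludin, averaged 5.68 ± 6.23 CPM in WT and 3.40 ± 0.936 CPM in KO endometrium. Its means were 0.536 ± 1.42 and 1.33 ± 2.13 CPM in myometrium and 3.41 ± 3.51 and 3.21 ± 3.29 CPM in uterus. Its difference of 2.81 ± 1.02 (adjusted p = 0.0690) in WT and 0.99 ± 0.71 (adjusted p = 0.372) in KO did not pass the test; WT myometrium held 2 counts, and the WT ratio was 9.86 (95% counting interval 2.38 to 87.3). Tjp1, the scaffold ZO-1, which fibroblasts, muscle and endothelium also make, was measured at similar levels in both layers. In WT, Tjp1 lay at 6.44 to 27.3 CPM (median 13.0) in the endometrium, 4.66 to 19.8 CPM (median 14.0) in the myometrium and 2.57 to 10.3 CPM (median 4.57) in the intact uterus. In KO, Tjp1 lay at 4.35 to 12.8 CPM (median 9.98) in the endometrium, 1.45 to 38.2 CPM (median 9.87) in the myometrium and 1.12 to 12.9 CPM (median 4.64) in the intact uterus. The highest single value was a KO myometrium sample, the layers overlapped almost wholly. For Tjp1 the difference was 0.15 ± 0.39 (adjusted p = 0.867) in WT and -0.61 ± 0.46 (adjusted p = 0.393) in KO. Without WT mouse 3 the WT difference in Tjp1 was -0.054.

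Of the 3 polarity genes, 2 were called in WT and 1 in KO. Crb3, the small apical Crumbs protein of epithelia, averaged 45.6 ± 16.5 CPM in WT and 49.99 ± 11.6 CPM in KO endometrium. Its means were 9.06 ± 9.32 and 4.77 ± 6.33 CPM in myometrium and 24.6 ± 4.85 and 34.1 ± 14.1 CPM in uterus. It was higher in the endometrium by 2.31 ± 0.49 (adjusted p = 0.00187) in WT and 3.37 ± 0.49 (adjusted p = 3.32e-05) in KO. Pard6b, an adaptor of the PAR complex, averaged 4.43 ± 4.65 CPM in WT and 3.18 ± 2.60 CPM in KO endometrium. Its means were 0.417 ± 0.752 and 0.540 ± 0.933 CPM in myometrium and 3.50 ± 2.40 and 3.79 ± 6.43 CPM in uterus. It was called in WT, at 2.61 ± 0.86 (adjusted p = 0.0428) with a ratio of 8.30 (95% counting interval 1.95 to 74.4), and missed the threshold in KO, at 2.37 ± 0.87 (adjusted p = 0.0571) with a ratio of 7.79 (95% counting interval 1.96 to 67.6), the myometrium holding 2 counts in each genotype. Pals1, the scaffold that binds Crb3, averaged 20.1 ± 9.30 CPM in WT and 12.4 ± 5.62 CPM in KO endometrium. Its means were 11.2 ± 3.09 and 15.4 ± 7.48 CPM in myometrium and 8.16 ± 2.38 and 8.68 ± 3.86 CPM in uterus. It was not called in either genotype, at 0.65 ± 0.37 (adjusted p = 0.281) in WT and -0.37 ± 0.38 (adjusted p = 0.550) in KO, and its KO value was 0.13 when libraries were scaled to spike-ins, which took the median of all genes from 0.075 to 0.575.

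In desmosomes, cadherins of the desmoglein and desmocollin kinds reach across the gap, and plakoglobin (Jup), plakophilins and desmoplakin (Dsp) tie them to keratin. Dsp lay in WT at 4.87 to 33.3 CPM (median 14.7) in the endometrium, 0 to 3.75 CPM (median 2.16) in the myometrium and 0 to 11.0 CPM (median 2.57) in the intact uterus. In KO, Dsp lay at 3.18 to 47.3 CPM (median 9.98) in the endometrium, 0 to 6.45 CPM (median 4.27) in the myometrium and 2.08 to 24.4 CPM (median 4.59) in the intact uterus. The WT layers did not overlap and the KO layers did. For Dsp the difference was 2.58 ± 0.55 (adjusted p = 0.00178) in WT and 2.04 ± 0.57 (adjusted p = 0.0133) in KO. Jup, which also sits in adherens junctions of many cell types, lay in WT at 30.9 to 127 CPM (median 49.6) in the endometrium, 19.9 to 39.4 CPM (median 30.2) in the myometrium and 25.4 to 69.5 CPM (median 45.0) in the intact uterus. In KO, Jup lay at 35.7 to 194 CPM (median 52.2) in the endometrium, 19.4 to 54.1 CPM (median 36.0) in the myometrium and 25.7 to 60.6 CPM (median 41.8) in the intact uterus. Its layers overlapped and its difference was the smallest of those called, 0.83 ± 0.28 (adjusted p = 0.0499) in WT and 0.99 ± 0.32 (adjusted p = 0.0311) in KO; both calls were close to the threshold and were lost without any single WT mouse and without 5 of the 7 KO mice in turn. Perp, a membrane protein of desmosomes, averaged 40.8 ± 35.0 CPM in WT and 49.5 ± 20.2 CPM in KO endometrium. Its means were 7.20 ± 5.81 and 8.49 ± 7.00 CPM in myometrium and 29.8 ± 23.4 and 38.3 ± 10.7 CPM in uterus. It differed by 2.27 ± 0.47 (adjusted p = 0.00144) in WT and 2.42 ± 0.42 (adjusted p = 0.000191) in KO. Pkp3, a plakophilin of most epithelial desmosomes, averaged 10.8 ± 8.90 CPM in WT and 12.1 ± 7.79 CPM in KO endometrium. Its means were 2.10 ± 2.87 and 1.89 ± 2.03 CPM in myometrium and 4.96 ± 3.04 and 4.81 ± 2.99 CPM in uterus. It differed by 2.27 ± 0.70 (adjusted p = 0.0301) in WT and 2.38 ± 0.61 (adjusted p = 0.00719) in KO.

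Dsc2, a desmocollin, averaged 4.22 ± 3.64 CPM in WT and 6.96 ± 8.43 CPM in KO endometrium. Its means were 0.247 ± 0.653 and 0.921 ± 1.21 CPM in myometrium and 2.17 ± 2.00 and 2.43 ± 2.18 CPM in uterus. It differed by 3.30 ± 0.96 (adjusted p = 0.0209) in WT and 2.39 ± 0.84 (adjusted p = 0.0471) in KO, with 1 count in WT myometrium and a WT ratio of 18.7 (95% counting interval 2.95 to 778). Dsg2, the desmoglein of simple epithelia, averaged 12.9 ± 7.05 CPM in WT and 11.1 ± 6.69 CPM in KO endometrium. Its means were 2.14 ± 2.64 and 5.49 ± 3.61 CPM in myometrium and 4.63 ± 2.39 and 4.83 ± 2.30 CPM in uterus. It was called in WT, at 2.44 ± 0.63 (adjusted p = 0.00974), and not in KO, at 0.88 ± 0.47 (adjusted p = 0.209), a contrast between genotypes taken up with the interaction term. Pkp2, the plakophilin best known from heart muscle, averaged 3.87 ± 2.19 CPM in WT and 2.36 ± 2.75 CPM in KO endometrium. Its means were 6.37 ± 4.15 and 4.65 ± 4.15 CPM in myometrium and 2.92 ± 3.01 and 4.67 ± 5.25 CPM in uterus. It was the only tested gene below 0 in both genotypes, at -0.85 ± 0.56 (adjusted p = 0.369) in WT and -0.90 ± 0.66 (adjusted p = 0.387) in KO, neither called. Pkp1, the plakophilin of skin, had 2 counts, both in 1 WT endometrium sample, passed no filter and gave no comparison.

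A regulator had the highest fitted difference in each genotype, Grhl2 in WT and Esrp1 in KO. Grhl2, a grainyhead factor that keeps junction genes on, lay in WT at 5.15 to 30.0 CPM (median 9.75) in the endometrium, 0 to 2.33 CPM (median 0) in the myometrium and 2.06 to 10.1 CPM (median 3.76) in the intact uterus. In KO, Grhl2 lay at 2.79 to 17.4 CPM (median 7.94) in the endometrium, 0 to 6.27 CPM (median 0) in the myometrium and 0 to 6.72 CPM (median 2.08) in the intact uterus. It was seen in the myometrium of 1 of 7 WT mice and 3 of 7 KO mice, so the layers stood apart in WT and not in KO. The difference was 4.08 ± 0.72 (adjusted p = 0.000269) in WT, with 2 counts in the myometrium and a ratio of 22.8 (95% counting interval 5.96 to 194), and 1.65 ± 0.65 (adjusted p = 0.0776) in KO, not called. Esrp1, a splicing regulator of epithelial isoforms, lay in WT at 7.80 to 82.7 CPM (median 28.3) in the endometrium, 0 to 10.0 CPM (median 5.63) in the myometrium and 3.30 to 75.9 CPM (median 15.0) in the intact uterus. In KO, Esrp1 lay at 6.53 to 97.9 CPM (median 11.2) in the endometrium, 0 to 2.89 CPM (median 0) in the myometrium and 5.80 to 32.1 CPM (median 12.3) in the intact uterus. It was seen in the myometrium of 6 of 7 WT mice and 2 of 7 KO mice, the reverse of Grhl2, and the KO layers did not overlap. The difference was 2.68 ± 0.54 (adjusted p = 0.00111) in WT and 5.01 ± 0.77 (adjusted p = 5.85e-05) in KO, and in KO, with 3 counts in the myometrium, the ratio was 44.0 (95% counting interval 14.9 to 215). Esrp2, its paralogue, averaged 6.27 ± 6.09 CPM in WT and 11.2 ± 8.36 CPM in KO endometrium. Its means were 1.01 ± 1.01 and 1.45 ± 2.03 CPM in myometrium and 10.6 ± 13.2 and 6.09 ± 3.69 CPM in uterus. It differed by 2.25 ± 0.74 (adjusted p = 0.0430) in WT and 2.70 ± 0.66 (adjusted p = 0.00494) in KO.

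Elf3, an ETS factor of many epithelia, was the most abundant regulator. In WT, Elf3 lay at 44.2 to 173 CPM (median 104) in the endometrium, 3.45 to 58.2 CPM (median 9.32) in the myometrium and 20.6 to 151 CPM (median 47.4) in the intact uterus. In KO, Elf3 lay at 58.6 to 549 CPM (median 191) in the endometrium, 1.91 to 49.2 CPM (median 13.1) in the myometrium and 43.1 to 422 CPM (median 148) in the intact uterus. The WT layers overlapped through mouse 5 myometrium and mouse 3 endometrium, the KO layers did not overlap. For Elf3 the difference was 2.42 ± 0.42 (adjusted p = 0.000248) in WT and 3.53 ± 0.51 (adjusted p = 2.60e-05) in KO. Tmc4, of the transmembrane channel-like family, averaged 137 ± 76.1 CPM in WT and 156 ± 38.8 CPM in KO endometrium. Its means were 22.7 ± 18.3 and 25.1 ± 11.1 CPM in myometrium and 78.5 ± 26.9 and 101 ± 29.0 CPM in uterus. Its difference was 2.46 ± 0.39 (adjusted p = 8.49e-05) in WT and 2.62 ± 0.27 (adjusted p = 8.61e-07) in KO, and its layers did not overlap.

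**Figure D2:**
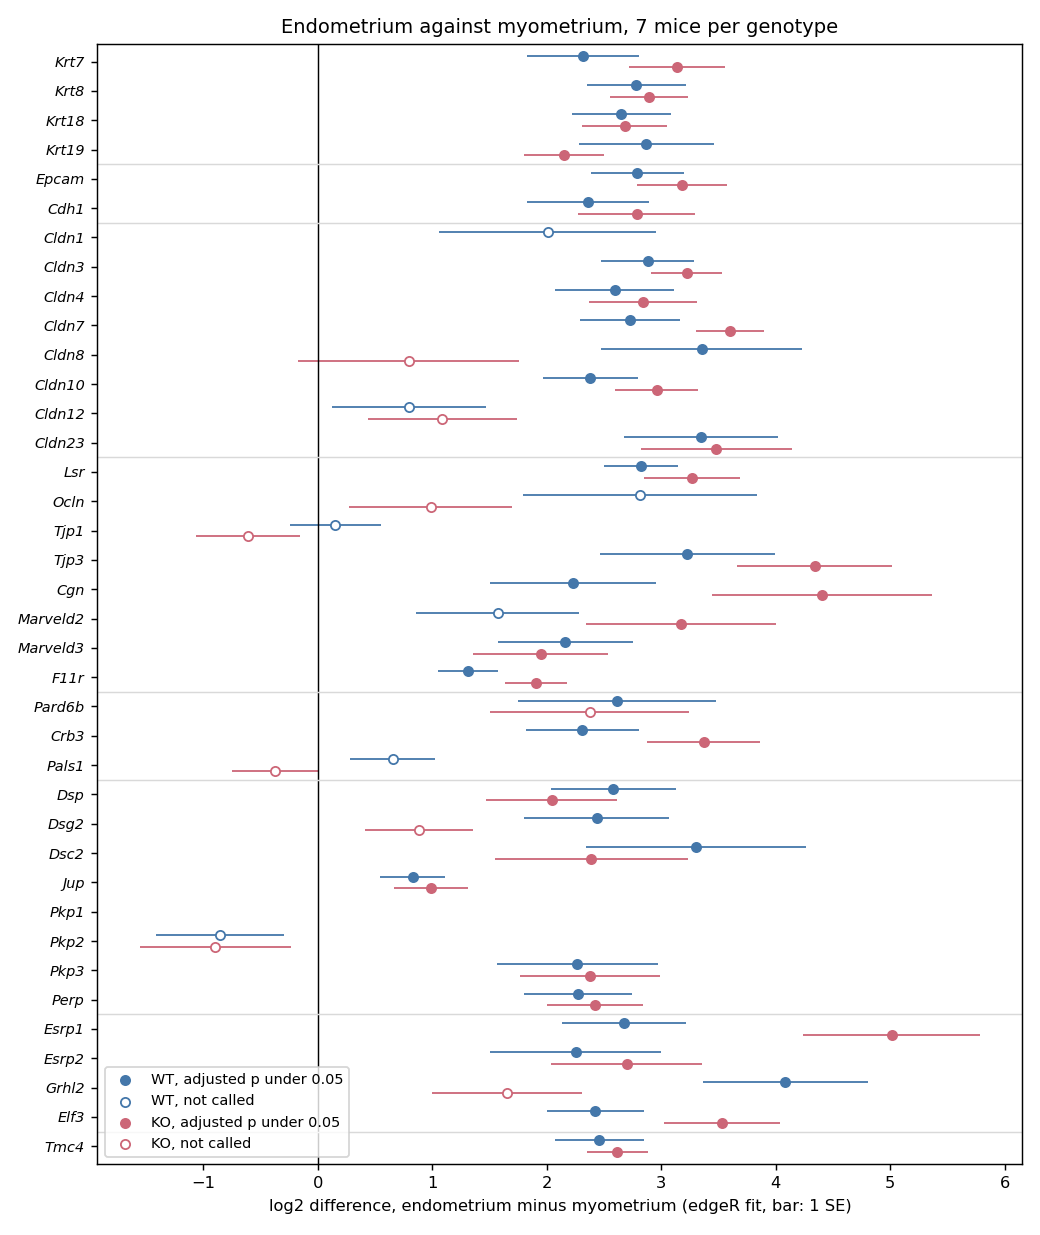
The log2 difference of endometrium minus myometrium is plotted for each gene in WT (blue) and KO (red) with 1 SE; filled points passed an adjusted p of 0.05 and open points did not. Most points lie between 2 and 4, whereas Tjp1, Pals1, Pkp2, Cldn12 and Jup lie near or below 1 in both genotypes, and Pkp1 has no point.

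Across the 2 genotypes, 26 genes were called in both, 31 in either and 7 in neither, namely Cldn1, Cldn12, Ocln, Tjp1, Pals1, Pkp1 and Pkp2. Of these, Pkp1 was tested in neither genotype and Cldn1 in WT alone. The share of all genes called in both genotypes was not taken, so these counts only describe the genes. Cldn8, Pard6b, Dsg2 and Grhl2 were called in WT alone and Marveld2 in KO alone, which does not by itself show a difference between genotypes. The direction was also read within each of 2 parts of the library set. Parts were taken from the letter of the code in each library's label. The labels do not say what the letters stand for. The first part (letters A, B and C) held mice 1 to 8 and the second (letters D, E and F) mice 9 to 14. Within each part, repeat libraries aside, each tissue had a letter of its own, so tissue and letter cannot be told apart. All 30 genes called in WT were higher in the endometrium within each part (median log2 difference of CPM + 1 of 2.29 over 5 mice and 3.10 over 2), as were all 27 called in KO (2.75 over 3 mice and 3.02 over 4). These genes were called on the same mice, which largely fixes their direction within the parts. The direction is thus a description and no separate test. Without WT mice 3, 5 and 8 and KO mouse 13, chosen after seeing the data for the libraries that stand apart, 25 genes were higher in WT and 25 in KO. With the mouse as a replicate block, since each mouse gave both layers, 3 WT calls were lost, namely Esrp2 (2.20, adjusted p = 0.0853), Jup (0.80, adjusted p = 0.0683) and Pard6b (2.52, adjusted p = 0.107). Ocln was gained in WT (2.97, adjusted p = 0.0499), and the 27 KO calls were the same genes. Besides Jup, the WT calls of Cgn, Dsc2, Esrp2, Marveld3, Pard6b and Pkp3 and the KO calls of Dsc2 and Marveld3 were lost without at least 1 single mouse, and the other calls held without any 1 mouse.

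**Figure D3:**
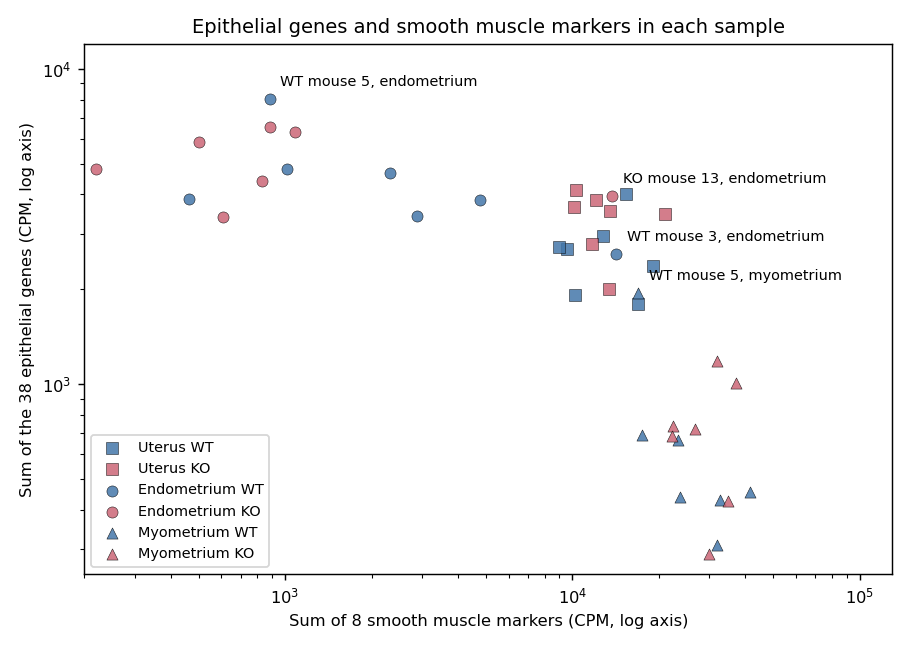
Each point is 1 sample, with the summed CPM of 8 smooth muscle markers on a log axis across and the summed CPM of the 38 genes on a log axis upwards. The endometrium of WT mouse 3 and KO mouse 13 lies among the intact uterus samples, and the myometrium of WT mouse 5, at 1948 CPM of the 38 genes, lies above the other 6 WT myometrium samples, which reach at most 690.4 CPM.

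Of the marker lists of other cell types, those of smooth muscle and stroma did not overlap between the layers, while those of mesothelium, endothelium and leukocytes did. In the endometrium, the summed smooth muscle list had a median of 2309.7 CPM in WT and 833 CPM in KO, with all 8 markers detected. The stroma list (8 genes) ranged from 1180.4 to 3396 CPM in the endometrium and from 5302 to 13981 CPM in the myometrium. Mesothelium, the keratin-bearing outer lining of the horn, is an epithelium too, and its list (6 genes) was highest in the intact uterus, at 36.8 to 296 CPM, against 3.33 to 97.5 CPM in the endometrium and 10.8 to 96.1 CPM in the myometrium, with its marker Bnc1 at 0 in WT uterus and KO endometrium. The gland list (Foxa2, Cxcl15, Prss28 and Prss29 in the table) had medians of 4427 CPM in WT and 1845 CPM in KO endometrium, and the luminal list (5 genes) 905 and 2078 CPM. Both lists were also present in the myometrium and overlapped between the layers. There the gland list ran from 89.6 to 2211 CPM in WT (median 435) and from 7.47 to 1095 CPM in KO (median 201). The luminal list ran from 0 to 514 CPM (median 122) and from 8.54 to 589 CPM (median 111). The endothelium list (6 genes) ran from 45.6 to 192 CPM and the leukocyte list (6 genes) from 317 to 1817 CPM in the endometrium, against 93.8 to 199 and 317 to 1110 CPM in the myometrium. In the endometrium the epithelial lists overlapped widely between genotypes. They ran from 163 to 12750 CPM in WT against 68.4 to 6924 CPM in KO for glands and from 49.6 to 1988 CPM against 104 to 3380 CPM for the lumen. The part of these lists in the values of the 38 genes was not tested.

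In the intact horn the genes were again well above the muscular wall. In WT, 36 were tested against myometrium and 22 were higher, 0 lower (6.73% of all genes higher, 5.32% lower), and in KO 35 were tested and 22 were higher, 0 lower (8.03% higher, 6.06% lower). The median difference was 2.15 in WT and 2.24 in KO. Both genotypes called 20 of the genes, and the share of all genes called in both was not taken. All uterus samples lay above all myometrium samples for 1 gene in WT and 13 in KO (0.878% and 1.33% of all genes). The highest fitted differences called in WT were those of Grhl2, at 3.06 ± 0.76 (adjusted p = 0.0106) and a ratio of 9.84 (95% counting interval 2.52 to 84.7), and Esrp2, at 3.36 ± 0.85 (adjusted p = 0.0110). Without WT mice 3, 5 and 8, Grhl2 gave 2.22 (adjusted p = 0.194) and was no longer called. With the replicate block the calls of Pard6b in WT (2.64, adjusted p = 0.0664) and Cgn in KO (2.91, adjusted p = 0.0790) were lost. In KO the highest were those of Esrp1, at 4.18 ± 0.66 (adjusted p = 8.73e-05) and a ratio of 20.9 (95% counting interval 6.94 to 103), and Tjp3, at 3.97 ± 0.81 (adjusted p = 0.00136) and a ratio of 17.0 (95% counting interval 4.48 to 144). These 4 genes did not reach 1 CPM in 5 of 7 myometrium samples of that genotype and passed the filter through the uterus alone. The shares above are thus no test of the list. Of 75 Esrp2 counts in WT uterus, 42 were from mouse 5 (38.4 CPM), and WT myometrium held 4. Its adjusted p stayed at or below 0.042 over the 15 settings that tested it. Over the genes called between endometrium and myometrium, the mean CPM of the intact uterus lay a median of 48.7% of the way from myometrium to endometrium in WT (7.79 to 182%) and 57.2% in KO (9.56 to 72.8%). Dsp in WT and Jup in KO lay nearest the myometrium, and Esrp2 in WT was higher in the intact uterus than in the endometrium.

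Between scraped endometrium and intact uterus, which share the epithelium, 0 of the 37 tested genes were called by edgeR in either genotype (of all genes, 0.550% were called higher and 1.05% lower in WT, 0.324% and 0.926% in KO). At an unadjusted p under 0.05, 11 were higher in WT and 9 in KO, and 0 lower (15.1% and 14.4% of all genes in either direction). The median difference was 0.55 in WT and 0.44 in KO, and 34 of 37 were above 0 in each, against 50.8% and 55.6% of all genes. The lowest p in WT was that of Dsp, at 1.91 ± 0.58 (95% interval 0.72 to 3.11, unadjusted p = 0.00305, adjusted p = 0.101), and in KO that of Cldn4, at 1.26 ± 0.40 (95% interval 0.43 to 2.08, unadjusted p = 0.00451, adjusted p = 0.122). DESeq2 called Dsp in WT and 0 genes in KO, and edgeR with the mouse as a replicate block called Cldn3 and Dsp in WT and 0 in KO.

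The study asked whether loss of Plag1 changes the uterus, and none of these genes passed the test between KO and WT. In the uterus 0 of 36 tested genes were called, in the endometrium 0 of 37 and in the myometrium 0 of 30, by edgeR and by DESeq2, and among all genes edgeR also called 0 in each tissue. At an unadjusted p under 0.05 there were 5 of 36 in the uterus (Elf3, Krt19, Krt7, Krt8 and Dsp, all higher in KO), 4 of 37 in the endometrium (Elf3, Krt7, Krt8 and Esrp2, all higher) and 2 of 30 in the myometrium (Dsg2 higher, Esrp1 lower), against 5.64%, 5.20% and 4.22% of all genes in either direction. The tissues came from the same mice, so the recurrence of Elf3, Krt7 and Krt8 in uterus and endometrium is not a second set of animals.

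Elf3 had the lowest p of the 38 genes in both uterus and endometrium. In the uterus Elf3 lay at 20.6 to 151 CPM (median 47.4) in WT and 43.1 to 422 CPM (median 148) in KO, and in the endometrium at 44.2 to 173 CPM (median 104) and 58.6 to 549 CPM (median 191). Mice 6 and 11 were the highest of the KO group in both tissues, 4 KO endometrium samples and 2 KO uterus samples exceeded every WT sample, and the remaining KO samples lay among the WT values. The KO minus WT difference in Elf3 was 1.46 ± 0.47 (95% interval 0.49 to 2.44, unadjusted p = 0.00485, adjusted p = 0.631) in the uterus and 1.45 ± 0.39 (95% interval 0.64 to 2.26, unadjusted p = 0.00112, adjusted p = 0.729) in the endometrium. Over 24 settings it stayed between 1.02 and 1.89 in the uterus (adjusted p 0.375 to 0.952) and between 1.06 and 1.67 in the endometrium (0.389 to 1.00). In the first and the second part of the library set the difference of mean log2(CPM + 1) was 1.20 and 1.59 in the uterus (exact 2-sided permutation p = 0.286 and 0.267). In the endometrium it was 1.07 and 1.01 (exact 2-sided permutation p = 0.286 and 0.267). The 8 and 6 mice of the parts allow no p below 0.0357 and 0.133.

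Krt7 differed by 0.86 ± 0.34 (95% interval 0.14 to 1.57, unadjusted p = 0.0207, adjusted p = 0.789) in the uterus and by 0.92 ± 0.34 (95% interval 0.23 to 1.62, unadjusted p = 0.0113, adjusted p = 0.891) in the endometrium. In the endometrium KO mice 11 and 14 lay far above all WT samples and KO mice 2 and 13 just above them, and the other 3 lay within the WT range. Krt8 differed by 0.74 ± 0.32 (95% interval 0.07 to 1.41, unadjusted p = 0.0309, adjusted p = 0.937) in the endometrium, where the groups overlapped over most of their range. In the first and second part of the library set, Krt7 differed by 0.46 and 1.02 in the uterus and by 0.68 and 1.02 in the endometrium, and Krt8 by 0.18 and 0.81 in the endometrium, with exact permutation p between 0.133 and 0.857. In the uterus Krt19 differed by 0.95 ± 0.35 (95% interval 0.22 to 1.68, unadjusted p = 0.0128, adjusted p = 0.714). Its difference of mean log2(CPM + 1) was 1.32 in the first part of the library set and -0.12 in the second (exact 2-sided permutation p = 0.0714 and 0.800). Without WT mice 3, 5 and 8 and KO mouse 13, Krt19 gave 0.39. With libraries scaled to spike-ins, Krt7 in the uterus gave 0.41 and Krt19 0.56, on a scale where the median of all genes was -0.37, against -0.050 with the TMM scaling used elsewhere.

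In the myometrium Esrp1 differed by -2.38 ± 0.81 (95% interval -4.03 to -0.72, unadjusted p = 0.00634, adjusted p = 0.990), KO being lower, on 21 counts in WT and 3 in KO. It was at 0 in 5 KO mice and 1 WT mouse, and WT mice 1, 3, 5, 7, 8 and 12 all exceeded the highest KO sample. In the first and second part of the library set, Esrp1 differed by -2.22 and -0.94 (exact 2-sided permutation p = 0.0357, the smallest 8 mice allow, and 0.667). Dsg2 was higher in KO by 1.47 ± 0.71 (95% interval 0.03 to 2.92, unadjusted p = 0.0457, adjusted p = 1.00), with 3 WT samples and 0 KO samples at 0. Its differences within the parts of the library set were 0.83 and 2.11 (exact 2-sided permutation p = 0.536 and 0.133). Cldn3 differed by -0.64 ± 0.39 (95% interval -1.44 to 0.16, unadjusted p = 0.114, adjusted p = 1.00). Without WT mouse 5 its difference was 0.087, and in the 2 parts of the library set it was -0.90 and 0.68 (exact 2-sided permutation p = 0.286 and 0.267).

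**Figure D4:**
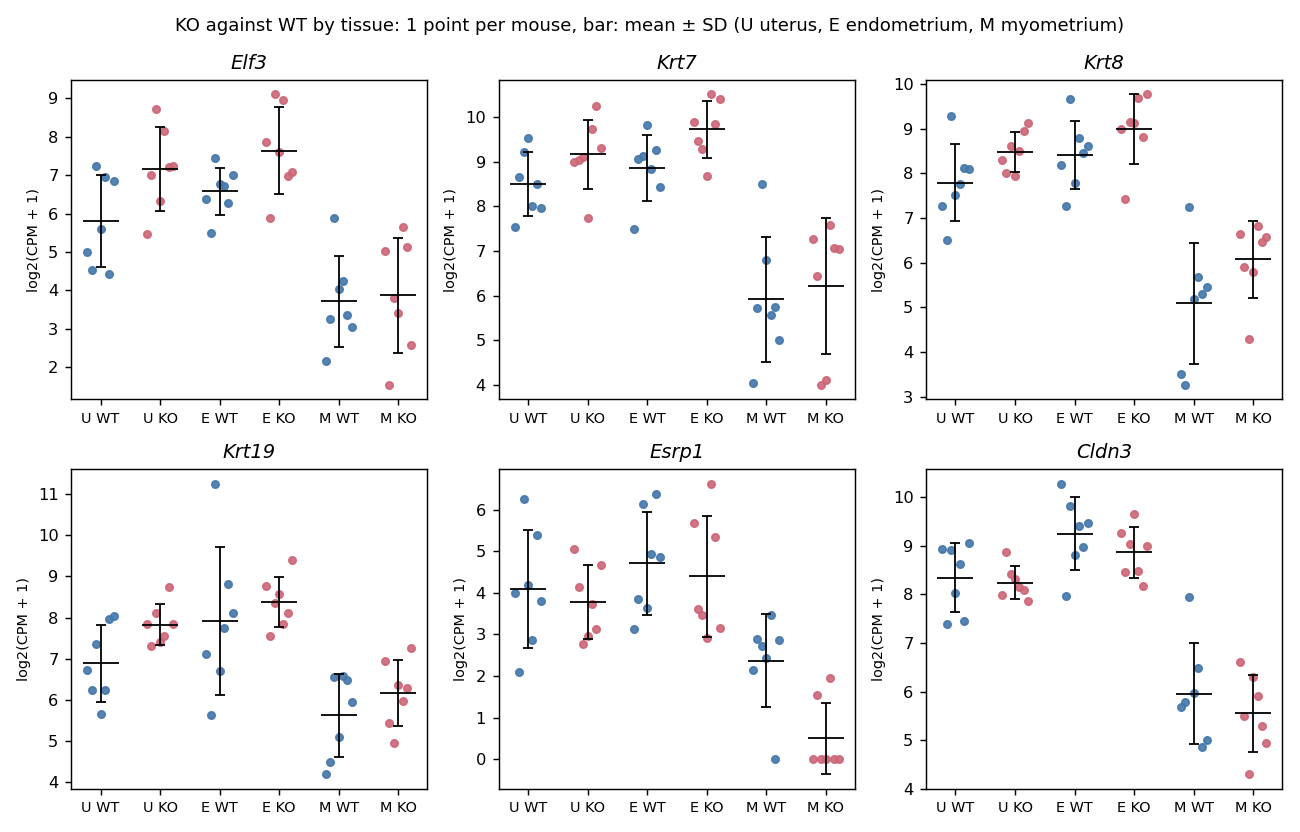
Points are mice in log2(CPM + 1), coloured by genotype within uterus (U), endometrium (E) and myometrium (M), with the mean and SD in black. Elf3 and Krt7 means are higher in KO uterus and endometrium with overlapping points, Krt8 and Krt19 overlap more, and Esrp1 is at 0 in 5 of 7 KO myometrium samples; no gene passed the adjusted test.

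Whether the step from myometrium to endometrium itself differed between genotypes was tested with an interaction term over the 4 groups of these tissues. Of 37 genes tested 0 were called by edgeR and 0 by DESeq2, and 2 had an unadjusted p under 0.05, against 4.60% of all genes. These were Grhl2, at -2.47 ± 1.05 (95% interval -4.59 to -0.35, unadjusted p = 0.0233, adjusted p = 0.993), the step being smaller in KO, and Esrp1, at 2.31 ± 1.12 (95% interval 0.04 to 4.58, unadjusted p = 0.0465, adjusted p = 0.993), the step being larger in KO. Pals1 came next, at -1.03 ± 0.51 (95% interval -2.06 to 0.012, unadjusted p = 0.0526, adjusted p = 0.993), and the gene called in WT alone with the next lowest p was Dsg2, at -1.56 ± 0.81 (95% interval -3.19 to 0.07, unadjusted p = 0.0605, adjusted p = 0.993). The myometrium held 2 counts of Grhl2 in WT and 9 in KO, and 21 and 3 of Esrp1. Over 24 settings the values of these 2 genes ran from -4.28 to -1.86 and from 1.37 to 3.09.

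The makeup of the set is given by genotype as a description. Keratins took 51.9% ± 7.32 (SD, n = 7) of the summed level in KO uterus and 44.1% ± 7.34 in WT uterus, ranging from 44.7 to 63.7% and from 32.8 to 51.6%. Claudins took 24.3% ± 4.95 in KO and 32.5% ± 9.01 in WT uterus, and 25.8% ± 4.85 and 33.1% ± 10.2 in the endometrium. The ranges of WT and KO overlapped for each share. In the myometrium, desmosomal genes made up a larger share than elsewhere, 9.14% ± 3.81 in WT and 10.5% ± 7.19 in KO against 3.36% ± 0.718 and 3.50% ± 1.22 in the endometrium, Jup being most of it. Other tight junction genes did so too, at 10.8% and 8.12% against 5.69% and 5.17%, as did polarity genes, at 3.31% and 3.41% against 1.67% and 1.34%. The summed desmosomal level was itself lower in the myometrium, at 50.8 CPM in WT and 63.4 CPM in KO against 152 and 180 CPM in the endometrium.

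Ratios between keratins were also taken within each sample. The log2 ratio of Krt7 to Krt18 in the endometrium averaged -0.29 ± 0.84 (SD, n = 7) in WT and 0.43 ± 0.62 in KO, a difference of 0.72 (exact 2-sided permutation p = 0.0921). That of Krt8 to Krt18 averaged -0.76 ± 0.50 and -0.30 ± 0.77 (exact 2-sided permutation p = 0.218). Over 3 ratios in 3 tissues, 9 tests in all and chosen after values were seen, the lowest Benjamini-Hochberg adjusted p was 0.548.

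Several of the 38 genes lie close together in the genome (NCBIM37, equal to mm9). Krt8 (15:101827142-101834773, minus strand) and Krt18 (15:101858647-101862457, plus strand), which pair in simple epithelia, lie 23874 bases apart and point away from each other, with Krt7 (15:101241474-101260744, plus strand) 566398 bases from Krt8. Cldn3 (5:135462084-135463342) and Cldn4 (5:135420996-135422804) lie 39280 bases apart on opposite strands, and Ocln and Marveld2, of the same protein family, 43239 bases apart on the minus strand of chromosome 13. Of these pairs, Krt8 with Krt18 and Cldn3 with Cldn4 were called together in both genotypes, while Ocln and Marveld2 were rare. The annotation placed 3 genes (Cgn, Grhl2 and Tmc4) over another gene on the same strand and 15 over one on the opposite strand. Whether the counting used strand is not given in the sources used here, so reads of such neighbours may be included in their values.

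A further 83 genes, of the same families and of some others, served as a wider view. Between endometrium and myometrium, 57 were tested in WT, with 18 higher and 6 lower, against 6.81% and 6.39% of all genes. In KO 58 were tested, with 21 higher and 6 lower, against 10.6% and 8.71% of all genes. Their median difference was 0.30 in WT and 0.57 in KO, where the median of all genes was 0.0053 and 0.075. The wider list includes claudins of endothelium, cadherins of stroma and widely used polarity genes. Outside those families it holds the repressors Snai1, Snai2, Zeb1 and Zeb2, and Twist1. Proteases and their inhibitors (St14, Prss8, Spint1 and Spint2) and trafficking genes such as Rab25 are in it too. The counts above cover all of these together. Rab25, a trafficking GTPase of epithelia, was at 125.6 ± 49.1 CPM (SD, n = 7) in WT endometrium and 15.5 ± 23.2 CPM in myometrium, a difference of 2.88 ± 0.49 (adjusted p = 0.000172). Cldn22 in WT and Ovol1 in KO were also called higher, with all 7 myometrium samples at 0. Cldn22 rested on the endometrium of WT mouse 8, at 61.9 CPM, the other 6 lying between 0 and 2.36 CPM, and without mouse 8 it did not reach the filter and was not tested. Ovol1 lay between 0 and 6.53 CPM in KO endometrium, and its call was lost without mouse 2. Lower in the endometrium were Cldn5, the endothelial claudin, at 11.9 ± 10.0 against 57.7 ± 24.99 CPM in WT (-2.34 ± 0.39, adjusted p = 0.000165), and Cdh2, or N-cadherin, at 2.33 ± 1.14 against 15.2 ± 7.43 CPM in KO (-2.51 ± 0.46, adjusted p = 0.000347). Krt17 in WT and Cdh3 in KO were lower too, at -2.64 ± 0.82 (adjusted p = 0.0297) and -2.15 ± 0.64 (adjusted p = 0.0189), and these calls were lost without any 1 of WT mice 1, 5, 10 and 12 and of KO mice 6 and 11.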

How the data were processed

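STRT RNA-seq of mouse uterus, endometrium and myometrium was analysed from the raw gene counts deposited by the authors. By the study's RNA-seq methods, reads were filtered, demultiplexed, joined by molecular identifier, mapped to mm9 with TopHat and counted in genes with Homer; the submitters' processing notes name HTSeq, with no version. Strand use is not given in the sources used here.

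Groups came from the sample labels. The design text names more mice than the 14 analysed here. Spike-ins stayed out of totals, CPM and tests. Repeat libraries of 1 mouse and tissue (mouse 13 endometrium, mouse 12 myometrium) were summed; they differed less than libraries of different mice (chi-square per degree of freedom 2.91 to 4.21 against 5.43 to 13.3, and 2.02 against 3.08 to 7.86).

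Each comparison was fitted in edgeR 4.0.16 (R 4.3.3; TMM, quasi-likelihood F test) on genes reaching 1 CPM in 5 or more samples, adjusted by Benjamini-Hochberg over all genes tested, threshold 0.05. DESeq2 1.42.0, other filters and scalings, a replicate block and left-out mice were alternatives, 1 of them added after seeing the data. The code was tested on simulated data. P-values measure the spread between mice within the groups, and 95% intervals of log2 differences use the degrees of freedom of the same test. For comparisons of tissues and the interaction, the main fits did not pair the tissues of a mouse, which only the replicate block did. Ratios of pooled counts have exact binomial 95% intervals, which cover counting error only, and 3 counts were 2.45 to 11.7 CPM. Pooled counts weight each sample by its depth. The summed endometrium libraries of KO mouse 13 gave 17 of 27 Pard6b counts and 97 of 229 Esrp1 counts in KO endometrium.

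The mouse number marks the same animal in each tissue. Deviations from group means correlated at a mean r of 0.0658 to 0.144 within a mouse and -0.0237 to -0.0111 between mice, over 14822 genes. Single mice ran from -0.00898 to 0.250. Deviations sum to 0 in each group, so the mean between mice largely follows from that within mice and is no separate contrast.

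The 38 genes, the other lists and the promoter letters were chosen with earlier results of these data known. Every gene of the 38 is named; for other comparisons the 2 largest called changes, or the 3 smallest p-values for genotype and interaction, are given, except 1 gene that is not reported here, and any other gene named was chosen after its values were seen.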

Additional observations from a re-analysis of the deposited data

Results flagged for a closer look

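Single samples were compared with the other 6 of their group for the 16 genes given by sample and for the summed level, on the log2(CPM + 1) scale. In 8 of 102 groups the lowest or highest sample lay far from the rest by Dixon's 95% limit for 7 samples, and chance alone gives about 1 in 20. Epcam in the uterus of KO mouse 9 was 68.6 CPM, against 136 to 226 in the others. Cldn7 in the endometrium of WT mouse 3 was 79.1 CPM, against 187 to 288. Krt8 in the endometrium of KO mouse 4 was 172 CPM, against 447 to 872. Krt18 in the myometrium of WT mouse 5 was 321 CPM, against 32.8 to 70.1. Krt8 in the myometrium of KO mouse 6 was 18.7 CPM, against 54.8 to 113. In the myometrium of WT mouse 10, Dsp was at 0 (others 2.00 to 3.75 CPM), Esrp1 was at 0 (others 3.45 to 10.0 CPM) and Grhl2 was at 2.33 CPM where the others were at 0. Those last values are a few counts each.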

How the results depend on the processing

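Depth limited the rare genes most, since 3 counts stood for up to 11.7 CPM. The count of genes higher in the endometrium than in the myometrium stayed between 21 and 30 in WT over 16 alternatives. In KO it ran up to 30 and fell to 17 with a filter at 10 CPM, where fewer genes were tested. Leaving out each mouse in turn gave 23 to 28 in WT (23 without mouse 10) and 25 to 26 in KO, and for uterus against myometrium 15 to 22 in WT (15 without mouse 12) and 19 to 22 in KO. Over all 16 alternatives the WT count of the latter lay between 15 and 31 and the KO count between 16 and 24. Without mouse 10, Tjp1 was called lower in WT uterus than in myometrium; the other comparisons stayed at 0. For endometrium against uterus in WT, DESeq2 called 1 gene and the replicate block 2, in place of 0. Elsewhere the replicate block gave 28 and 27 genes (endometrium against myometrium, WT and KO), 21 and 21 (uterus against myometrium) and 0 for the interaction; genotype comparisons share no mouse and take no such block.

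The sign changed in results that were not called. For Cldn3 and Tjp1 the cause was not tested. Cldn3 between genotypes in the myometrium gave -0.84 to 0.087 without single mice (0.087 without mouse 5) and 0.48 without mice 3, 5, 8 and 13. Tjp1 between the WT layers gave -0.054 (without mouse 3) to 0.43 (without mouse 12) and -0.028 without mice 3, 5, 8 and 13. Pals1 between the KO layers gave 0.13 with spike-in scaling. That scaling moved the median of all genes between endometrium and myometrium to 0.21 in WT (0.0053 before) and 0.575 in KO (0.075 before), and the sign of Pals1 changed with it. Of the genes then called between the layers, 67.3% were higher in WT (51.6% before) and 86.3% in KO (54.9% before). For uterus against myometrium the figures were 97.1% (55.9% before) and 92.9% (57% before), and for endometrium against uterus 2.7% (34.3% before) and 10% (25.9% before). With it 30 of the 38 genes were called between the layers in each genotype. Of all genes, 1417 of 13227 were then called in either direction in WT (1746 before). In KO these were 3049 of 12969 (2508 before).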
